A study of Mus musculus with 18 samples.

Results

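Kit, Cd34, Myb, Runx1, Gata2, Meis1, Erg, Mecom and Hlf, 9 genes that mark or control blood stem and progenitor cells, were followed through mouse liver development. They were chosen by name, as a group of regulators that textbooks place at the top of the blood cell hierarchy, and were read on every probe set that the array annotation assigns to exactly 1 of these symbols. This gave 24 of the 34945 probe sets with a single symbol, and 9 of 18193 genes. No probe set with several symbols included 1 of them. Transcript levels were measured in CD-1 mice, an outbred strain, on 18 Affymetrix arrays. The groups were normal adult liver (females, 10 weeks old, 2 arrays), embryonic liver of each day between 10.5 and 14.5 days post conception (dpc), and once more at 16.5 dpc (2 arrays a stage), and embryos without their liver (the rest of the embryo), taken daily from 10.5 to 12.5 dpc and again at 14.5 dpc (1 array a stage). The titles of these last 4 arrays speak of embryonic liver while their source names embryo minus liver, and the age tag of embryonic livers repeats 10.5 dpc at later stages, so groups and stages were taken from the source names. Every embryonic sample pooled at least 5 embryos, and no allele or agent distinguished the groups. The titles call the arrays biological replicates, but the labels leave unsaid whether arrays of a group stem from separate litters. The p-values below therefore reflect only how far these arrays differed, which may not cover the spread between litters.

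The embryonic liver is the main blood-forming organ of the fetus: stem and progenitor cells made elsewhere in the embryo settle in it, multiply and later leave for the bone marrow. Kit is the receptor for stem cell factor and is carried by stem and progenitor cells, mast cells, germ cells and melanocyte precursors. Cd34 is a sialomucin of the surface of progenitors and of endothelium. Myb, Runx1 and Gata2 are transcription factors of progenitors, and Runx1 and Gata2 act in the endothelium from which the first stem cells bud. Meis1, a homeodomain partner of Hox proteins, Erg, an ETS factor that is also a main regulator of endothelial genes, and Mecom, a zinc finger factor, act in stem cell maintenance, and Meis1 and Mecom are active in many embryonic tissues. Hlf belongs to the proline and acidic rich (PAR) basic leucine zipper family, marks stem cells, and in adult liver follows the daily clock.

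Mecom, Erg and Meis1 gave different answers on different probe sets, as described below, and the RefSeq promoter table (GRCm38.p6) lists 2 starts for Mecom and 3 for Erg. The 250 bases before the start are therefore shown for these genes where they held a searched motif, with the motifs in capitals. The letters searched on both strands were GATAA (GATA factors), TGTGGT (RUNX), CGGAAG (ETS), TGACAG (MEIS), CAGCTG (E-box) and TTANGTAA (PAR proteins), and none of these matches overlapped another.
Mecom, start 1, chr3:30509760-30510009, minus strand: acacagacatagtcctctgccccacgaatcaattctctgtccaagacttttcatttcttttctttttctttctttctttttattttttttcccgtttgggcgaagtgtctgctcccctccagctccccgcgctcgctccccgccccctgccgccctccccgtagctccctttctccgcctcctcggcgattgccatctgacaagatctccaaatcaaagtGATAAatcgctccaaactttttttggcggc
Mecom, start 2, chr3:30013205-30013454, minus strand: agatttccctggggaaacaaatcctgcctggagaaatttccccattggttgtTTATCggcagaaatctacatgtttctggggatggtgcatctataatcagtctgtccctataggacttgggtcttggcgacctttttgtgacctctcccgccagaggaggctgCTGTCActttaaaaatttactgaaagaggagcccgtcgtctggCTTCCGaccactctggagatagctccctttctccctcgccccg
Erg, start 3, chr16:95459349-95459598, minus strand: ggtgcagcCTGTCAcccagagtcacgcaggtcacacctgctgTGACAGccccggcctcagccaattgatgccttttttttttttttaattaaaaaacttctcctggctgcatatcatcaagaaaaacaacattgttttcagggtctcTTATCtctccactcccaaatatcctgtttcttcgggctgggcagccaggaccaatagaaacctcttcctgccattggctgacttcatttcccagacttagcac
Meis1, chr11:19018970-19019219, minus strand: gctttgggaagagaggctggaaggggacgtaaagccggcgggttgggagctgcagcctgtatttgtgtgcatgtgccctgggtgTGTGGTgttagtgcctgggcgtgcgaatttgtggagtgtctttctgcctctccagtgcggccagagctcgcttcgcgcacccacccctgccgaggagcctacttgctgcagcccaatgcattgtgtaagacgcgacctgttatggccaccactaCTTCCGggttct
The first Mecom window held a GATA match 30 bases upstream of the start, and the second held a GATA match at 198, a MEIS match at 86 and an ETS match at 43 bases. The third Erg window held MEIS matches at 242 and 208 bases and a GATA match at 103 bases, and its other 2 windows held none. The Meis1 window held a RUNX match at 166 and an ETS match at 12 bases. The windows of Kit, Myb, Runx1, Gata2, Cd34 and Hlf held none of the 6 motifs. Over all 32851 windows of this length, 22.6% held GATAA, 14% TGTGGT, 13.6% CGGAAG, 15.9% TGACAG, 13.0% CAGCTG and 2.06% TTANGTAA. A match is a string of letters and not a measured binding site, and which start each probe set reads was not analysed here.

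The arrays carry intensities on a linear scale, and values at or under 24.8, the 20th percentile of all values, were raised to that floor before taking log2. A gene was represented by its brightest probe set and tested where this exceeded 78.0, the median of all values, on at least 2 arrays. A gene was called where the limma adjusted p was under 0.05 and the difference at least 1 log2. All 9 genes were tested among the liver arrays and 8 between the tissues, where Erg was too dim. Of the 24 probe sets, 18 were above 78.0 on at least 2 liver arrays and 4 on none. The values of the tissues differed in form: the 14 liver arrays had medians of 69.7 to 79.5 and 1216 to 1535 values below 0, and the 4 others medians of 91.9 to 107 and none below 0. Of 11 tested hepatocyte markers 9 were higher in liver than in the rest of the embryo and none lower. Embryonic livers at 10.5 dpc, and to a lesser degree at 12.5 dpc, also held heart transcripts, in amounts that differed between arrays. The summed intensity of 10 heart markers was 9450 and 16872 on the 10.5 dpc arrays, only 493 and 518 a day later, 1682 and 6631 on the 12.5 dpc arrays, and between 484 and 672 on the arrays from 13.5 dpc. Replicate 1 of 10.5 dpc had a Gapdh 3' to 5' ratio, which rises as RNA degrades, of 2.82, against 0.744 to 0.886 on the other liver arrays. With so few arrays, precision is limited throughout.

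**Figure D1:**
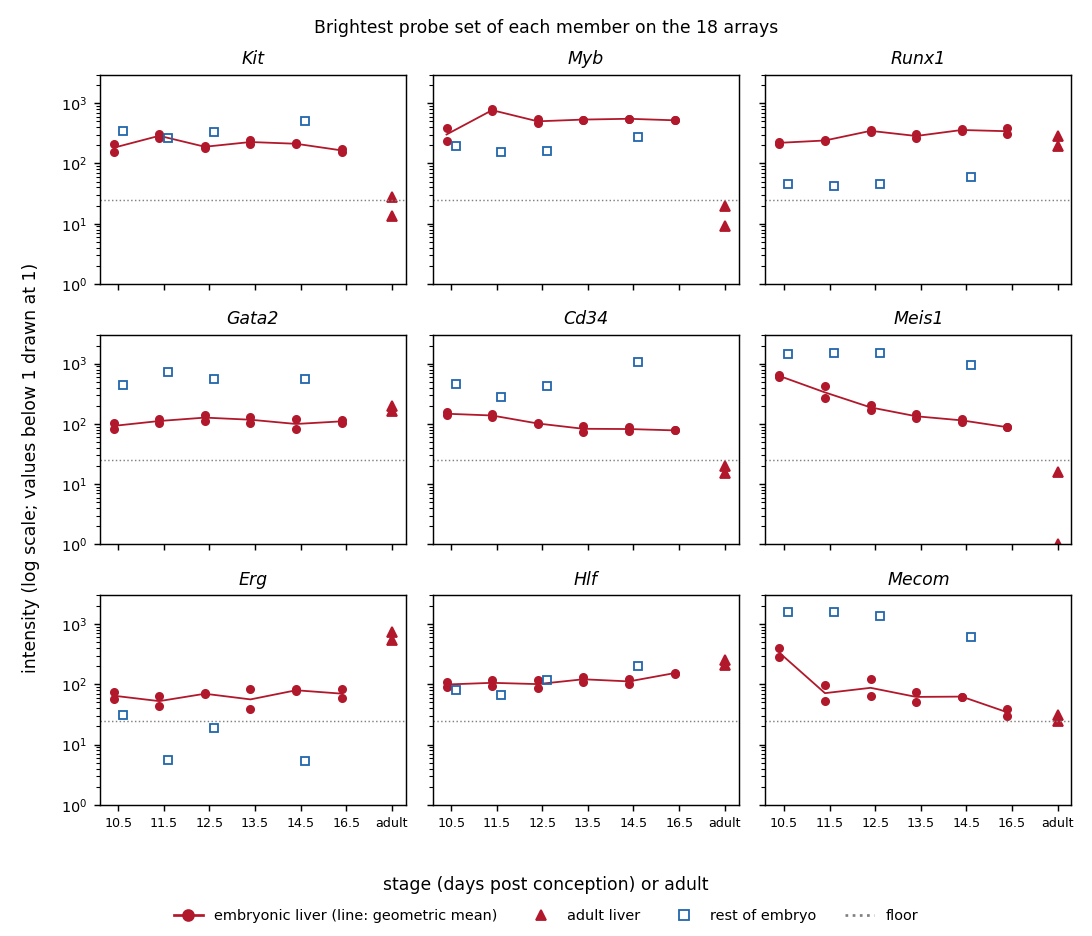
Intensity of the brightest probe set of each of the 9 genes on a logarithmic axis, by stage in days post conception and in the adult. Filled circles are embryonic liver arrays with a line through their geometric means (values raised to the floor), triangles adult liver, open squares the rest of the embryo, and the dotted line the floor of 24.8. In liver Meis1 runs down over the stages and Mecom drops between 10.5 and 11.5 dpc, Myb peaks at 11.5 dpc, and Kit, Myb, Cd34 and Meis1 sit at or near the floor in the adult.

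Between the first and the last embryonic stage Meis1 and Mecom fell in liver, and the other 7 genes did not pass both thresholds. Of the 9 genes 2 were called lower at 16.5 than at 10.5 dpc and none higher, where 17.4% of all 14125 genes tested were called, 10.4% higher and 6.98% lower. The median difference of the 9 was 0.11 log2 against 0.05 log2 over all genes tested. A test for change over any of the 6 stages called 6 of the 9, where it called 29.9% of all genes: Meis1 (limma adjusted p = 1.95e-05), Mecom (0.000854), Cd34 (0.00413), Myb (0.00474), Runx1 (0.0407) and Kit (0.0448). The calls for Runx1 and Kit were lost under many other settings, among them no filter on dim genes (adjusted p = 0.0644 for Runx1 and 0.0578 for Kit).

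Myb, a factor that progenitors need to multiply, was the 1 gene of the 9 called higher at 11.5 than at 10.5 dpc. Its brightest probe set read 742 and 796 at 11.5 dpc, against 239 and 385 at 10.5 dpc. Between 12.5 and 16.5 dpc it read 463 to 554 on all 8 arrays, below both 11.5 dpc arrays and above both 10.5 dpc arrays. From 10.5 to 11.5 dpc Myb rose by 1.34 log2 (SE 0.19, adjusted p = 0.00117), 2.54-fold. Across all genes 5.66% were called in this step, and Myb and Mecom were the 2 of the 9, in opposite directions. All 3 Myb probe sets were called in the fit of every probe set, at 1.34, 1.37 and 1.62 log2, where 5.80% of probe sets were called. Without replicate 1 of 10.5 dpc, the array with the high Gapdh ratio, the rise was 0.997 log2 (adjusted p = 0.00252), just under the threshold on size. At 16.5 dpc Myb stood 0.78 log2 above 10.5 dpc (SE 0.19, adjusted p = 0.0073), under that threshold. From 10.5 to 11.5 dpc the other genes that were not called differed by -0.91 log2 for Meis1 (adjusted p = 0.0154), 0.27 for Gata2, 0.13 for Runx1, 0.092 for Hlf, -0.097 for Cd34 and -0.30 for Erg.

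Kit was highest at the same stage on both of its probe sets, but the size of the difference depended on the probe set. The brighter one, 1452514_a_at, read 308 and 270 at 11.5 dpc, against 156 and 214 at 10.5 dpc, a difference of 0.66 log2 (SE 0.18, adjusted p = 0.0336) that was under 1 log2. The dimmer one, 1415900_a_at, read 93.6 and 113 at 11.5 dpc, against 27.5 and 52.6 at 10.5 dpc, and was called at 1.44 log2 (SE 0.28, adjusted p = 0.00792). Among the liver arrays the dimmer one exceeded the median of all values only at 11.5 dpc. It was therefore tested only through the stage in which it was called higher. The groups did not overlap on either probe set. From 12.5 to 16.5 dpc the brighter probe set stayed between 154 and 248, and 16.5 dpc differed from 10.5 dpc by -0.15 log2 (SE 0.18, adjusted p = 0.583). Kitl, which encodes the Kit ligand, read 392 and 455 at 16.5 dpc, against 479 and 494 at 10.5 dpc, a difference of -0.20 log2 (SE 0.13, adjusted p = 0.278).

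Meis1 fell over the embryonic stages. On its brightest probe set, 1450992_a_at, it read 607 and 646 at 10.5 dpc, followed by 265 and 421 a day later, 169 and 210 at 12.5 dpc, then 124 and 145, then 120 and 109, and 87.5 and 88.8 at 16.5 dpc. No stage overlapped the next. Between the ends this was a fall to 88.2 ± 0.88 at 16.5 dpc, against 626 ± 27.5 at 10.5 dpc (SD, n = 2 each), a difference of -2.83 log2 (SE 0.21, adjusted p = 3.03e-06). The part from 12.5 to 16.5 dpc, -1.09 log2 (SE 0.21, adjusted p = 0.0222), was also called, where 1.75% of all genes were, and no other gene of the 9 was. That later call was lost when replicate 2 of 12.5 dpc (-0.94 log2) or either 16.5 dpc array (adjusted p = 0.135 and 0.145) was left out.

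Mecom fell between the first 2 stages. Its brightest probe set, 1438325_at, read 399 and 282 at 10.5 dpc, and 52.5 and 97.2 at 11.5 dpc. Later it read 122 and 63.0 at 12.5 dpc, then 51.2 and 74.7, then 62.6 and 62.5, and last 29.9 and 39.4 at 16.5 dpc. Both 10.5 dpc arrays lay above all later ones. The fall from 10.5 to 11.5 dpc was -2.23 log2 (SE 0.37, adjusted p = 0.00305) and that from 10.5 to 16.5 dpc -3.29 log2 (SE 0.37, adjusted p = 5.25e-05), while 16.5 minus 12.5 dpc gave -1.35 log2 (SE 0.37, adjusted p = 0.0955).

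Heart transcripts were most abundant at 10.5 dpc, where Meis1 and Mecom were highest, and were present again at 12.5 dpc, where Meis1 read 169 and 210 and Mecom 122 and 63.0. Of the 10 heart markers 9 were lower at 16.5 than at 10.5 dpc, with Myl7, an atrial myosin light chain, at -6.33 log2, 9 were lower at 11.5 than at 10.5 dpc, and 5 were higher at 12.5 than at 11.5 dpc. Of 9 tested neural and neural crest markers 3 were lower at 16.5 than at 10.5 dpc, Nefm, a neurofilament gene, among them. Nefm was at the floor on both 16.5 dpc arrays, so that it was at least 10.7-fold lower. With the 10.5 and 12.5 dpc arrays left out and 11.5 dpc as the start, Meis1 was still called lower at 16.5 dpc (-1.92 log2, adjusted p = 0.000431), and Mecom was then too dim to be tested. The part of heart or other non-hepatic tissue in the falls of Meis1 and Mecom was not tested. In these whole-tissue samples fewer cells of a type and less RNA per cell cannot be told apart.

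Cd34, Runx1, Gata2, Erg and Hlf differed less between stages. Cd34, with 1 probe set, read 140 and 155 at 10.5 dpc, then 128 and 149, then 98.4 and 105, and 73.3 to 94.0 on the 6 later arrays. The difference of 16.5 minus 10.5 dpc was -0.92 log2 (SE 0.17, adjusted p = 0.00157), under the threshold on size, and it passed (-1.03 log2) when arrays were centred on their medians. Runx1 read 304 and 388 at 16.5 dpc, against 211 and 230 at 10.5 dpc, a difference of 0.64 log2 (SE 0.19, adjusted p = 0.0201). Hlf read 156 and 151 at 16.5 dpc, against 111 and 88.8 at 10.5 dpc, a difference of 0.63 log2 (SE 0.21, adjusted p = 0.0358). In both the 2 stages did not overlap. Gata2 read 81.9 to 143 and Erg 38.4 to 84.3 over the 12 embryonic liver arrays, with overlapping stages, and differed by 0.25 and 0.11 log2 between 16.5 and 10.5 dpc. The test over any stage called neither of them nor Hlf (adjusted p = 0.596 for Gata2, 0.662 for Erg and 0.194 for Hlf). From 11.5 to 12.5 dpc limma called none of the 9, where it called 2.95% of all genes and 2294 genes had an unadjusted p under 0.05. Meis1 came nearest in that step at -0.83 log2 (SE 0.21, adjusted p = 0.0467). The others differed by -0.62 log2 for Myb, -0.61 for Kit, -0.44 for Cd34, -0.071 for Hlf, 0.19 for Gata2, 0.29 for Mecom, 0.41 for Erg and 0.53 for Runx1. From 12.5 to 16.5 dpc the 7 genes other than Meis1 and Mecom differed by -0.38 log2 for Cd34, -0.21 for Gata2, -0.20 for Kit, -0.021 for Runx1, 0.0044 for Erg, 0.056 for Myb and 0.61 for Hlf, none of them called.

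The partners and relatives of these genes split in 2 ways over the embryonic period. At 16.5 against 10.5 dpc, limma called 6 of 29 tested family and partner genes higher and 7 lower, with a median of -0.20 log2. The 6 that rose were Tal1, Lmo2, Lyl1, Gata1, Zfpm1 and Mybl2. Tal1, Lmo2 and Lyl1 encode partners of GATA factors in progenitors and red cells, and Zfpm1 encodes the GATA1 cofactor FOG1. Tal1 rose by 2.90 log2 (SE 0.12, adjusted p = 1.12e-07), reading 1678 and 1512 at 16.5 dpc, against 223 and 203 at 10.5 dpc. The 7 that fell were Meis2, Pdgfra, Cbfb, Nfil3, Pbx2, Ets1 and Etv6. Meis2, the paralog of Meis1, fell by 3.22 log2 (SE 0.21, adjusted p = 1.31e-06), and Pdgfra, a mesenchymal receptor related to Kit, by 3.10 log2 (SE 0.16, adjusted p = 4.11e-07). Cbfb, the common partner of the RUNX proteins, read between 258 and 278 at 16.5 dpc, against 741 to 1055 at 10.5 dpc (-1.72 log2, SE 0.21, adjusted p = 9.59e-05).

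Tal1 and its partners, like Myb, were higher from 11.5 dpc. Between 10.5 and 11.5 dpc 419 of all 14125 genes tested were called higher and 380 lower. At 11.5 against 10.5 dpc, 5 of the 29 were higher, Tal1 by 1.76 log2 (SE 0.12), Gata1 by 1.44 log2 (SE 0.11), Lmo2, Lyl1 and Mybl2, and 2 lower, Meis2 by 1.41 log2 (SE 0.21) and Nfil3, which was at the floor on both 11.5 dpc arrays and at least 2.73-fold lower. Of 20 tested other stem and progenitor genes 5 were higher in this step and none lower: Gfi1b by 2.39 log2 and Ikzf1 by 2.34 log2, zinc finger factors of blood cells, Spn by 2.17 log2 and Ptprc, surface proteins of white cells, and Adgrg1, an adhesion receptor. Over the whole period this list had 7 higher and 5 lower, with a median of 0.02 log2. The higher ones were Ikzf1 (2.66 log2), Gfi1b (2.65 log2), Spn, Ptprc, Mllt3, Cebpa and Adgrg1. The lower ones were Angpt1 (-2.68 log2), the ligand of the receptor Tek, with Tek itself, Hoxb4, Prom1 and Fgd5. Red cell markers were read beside these: 11 of 11 tested were higher at 16.5 than at 10.5 dpc and their summed intensity was 34037 and 34435 at 16.5 dpc, against 3384 and 3591 at 10.5 dpc. Gata1 is on that list too.

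**Figure D2:**
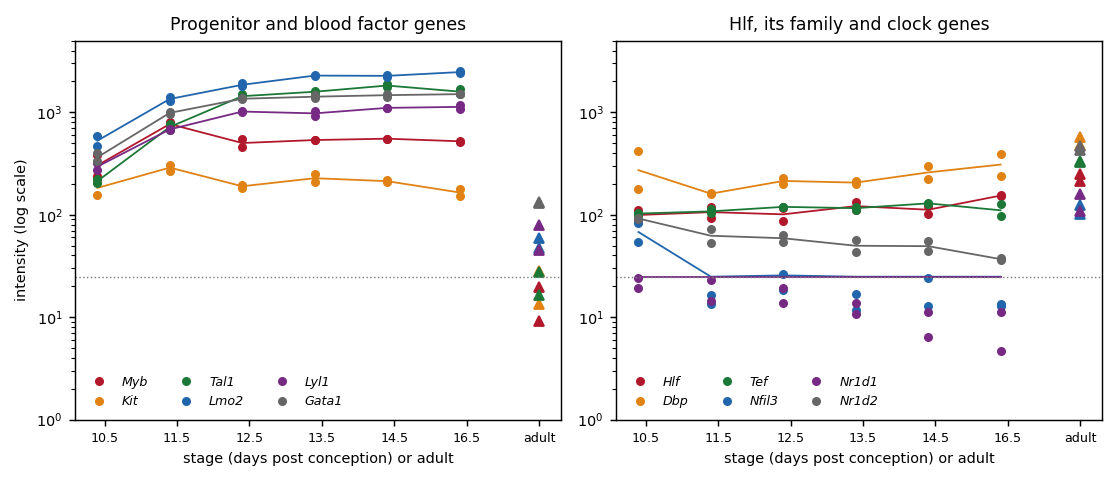
Intensity on a logarithmic axis by stage in days post conception and in the adult, for Myb, Kit and 4 genes of blood transcription factors (left) and for Hlf, 3 genes of its family and 2 clock genes (right), each on its brightest probe set. Circles are embryonic liver arrays with a line through their geometric means, triangles adult liver, and the dotted line the floor. Tal1, Lmo2, Lyl1 and Gata1 climb from 10.5 to 12.5 dpc and are low in the adult, and all 6 genes on the right have their highest values in the adult. Heights of different genes cannot be compared.

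The probe sets of a gene did not always agree, and those of Meis1 and Mecom gave opposite calls. Tested by themselves, 5 of 18 probe sets were called between 16.5 and 10.5 dpc, where 17.6% of all probe sets were called. The second Meis1 probe set, 1443260_at, read 104 and 113 at 16.5 dpc, against 44.9 and 49.8 at 10.5 dpc, and was called higher at 1.19 log2 (SE 0.29, adjusted p = 0.00808). The second Mecom probe set, 1422295_at, read 178 and 175 at 16.5 dpc, against 62.4 and 68.7 at 10.5 dpc, and was called higher at 1.43 log2 (SE 0.29, adjusted p = 0.00299), with a step of 1.24 log2 (SE 0.29, adjusted p = 0.0375) from 11.5 to 12.5 dpc. Neither of these probe sets exceeded the median of all values at 10.5 dpc, and that of Mecom did not at 11.5 dpc either. They were therefore tested only through later stages, in which they were called higher. The remaining probe sets, 1459423_at of Meis1 at 33.8 to 71.5 and 1423011_at of Mecom at 2.34 to 39.5 on embryonic liver arrays, were too dim among the liver arrays to be tested. With the mean of all probe sets, Meis1 stood at -0.50 log2 and Mecom at -0.82 log2 between 16.5 and 10.5 dpc, and neither was called, nor was Mecom at -0.95 log2 between 11.5 and 10.5 dpc. The falls described above are therefore those of the brightest probe sets. Whether the probe sets read different transcripts or other sequence was not tested. The dimmest Myb probe set, 1422734_a_at, passed the threshold at 1.05 log2 (SE 0.23, adjusted p = 0.00524), and no Runx1 or Gata2 probe set did.

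**Figure D3:**
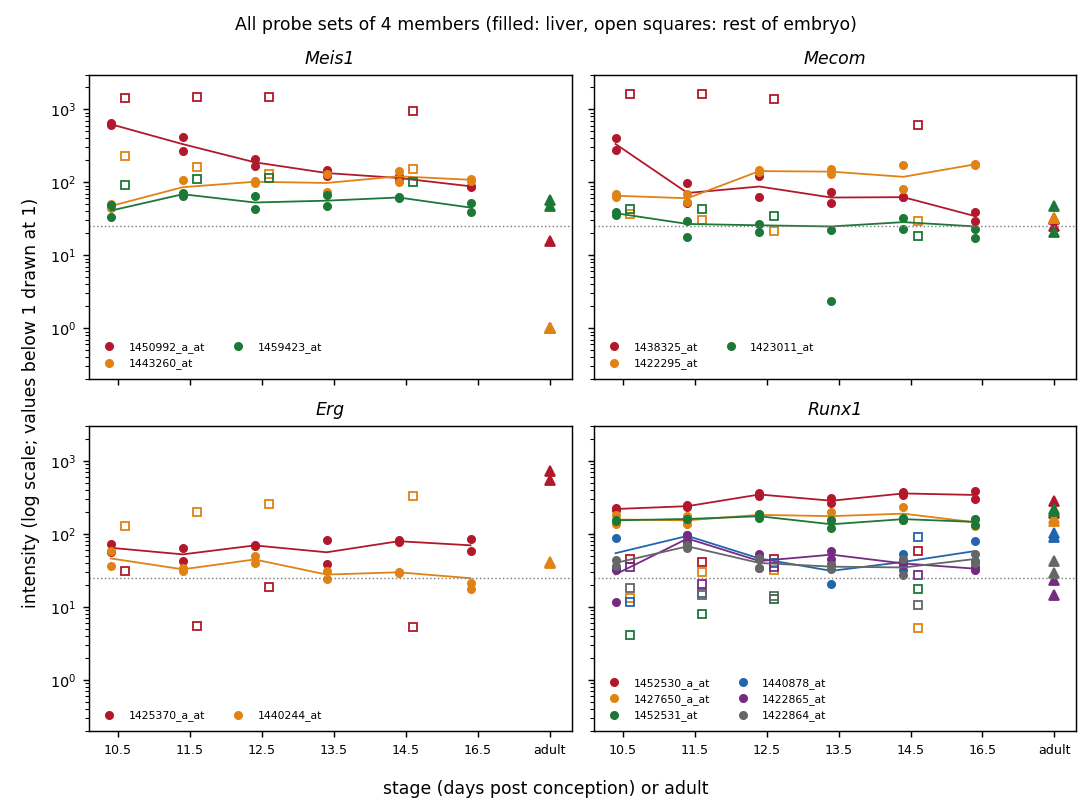
Intensity of every probe set of Meis1, Mecom, Erg and Runx1 on a logarithmic axis, by stage in days post conception and in the adult. Filled circles and triangles are embryonic and adult liver arrays, lines geometric means of the 2 arrays of a stage, open squares the rest of the embryo, and the dotted line the floor. The 2 brighter probe sets of Meis1 and of Mecom run in opposite directions in embryonic liver, and Erg is far higher in adult liver on 1 probe set only.

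Most of the progenitor genes were low in adult liver. Of the 9, 5 were lower in adult than in embryonic liver and 2 higher, where 35.5% of all genes were called, 23.7% lower and 11.9% higher. The median of the 9 was -1.54 log2 against -0.21 log2 over all genes. Tested by themselves, 10 of 18 probe sets were called lower and 2 higher, where 36.0% of all probe sets were called. No adult array exceeded the median of all values on any of the genes or probe sets called lower. Those were therefore tested only through embryonic liver, the group in which they were higher.

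Both adult arrays of Myb, Meis1 and Cd34 lay under the floor, so the sizes of their reductions are lower bounds and cannot be ranked. Myb read 19.6 and 9.17 in adult liver, against 239 to 796 with a median of 536 over the 12 embryonic arrays. It was at least 20.6-fold lower (-4.37 log2, SE 0.14, adjusted p = 8.43e-10), and its other probe sets were called lower as well. Kit read 28.1 and 13.3 in adult liver, against 154 to 308 with a median of 207 in embryonic liver (-2.97 log2, SE 0.14, adjusted p = 1.11e-08), with 1 adult array under the floor. Meis1 read 15.7 and -4.21 in adult liver, against 87.5 to 646 in embryonic liver, at least 7.81-fold lower (-2.97 log2, SE 0.16, adjusted p = 3.62e-08). Cd34 read 19.96 and 15.5 in adult liver, against 73.3 to 155 in embryonic liver, at least 4.10-fold lower (-2.03 log2, SE 0.13, adjusted p = 1.4e-07). On the brightest probe set of each of these 4 genes the adult arrays lay below all 12 embryonic arrays. How many of all genes did so was not counted. The Meis1 probe set 1443260_at read -157 and -166 in adult liver and was called lower (-1.86 log2, SE 0.22, adjusted p = 2.15e-05). Its probe set 1459423_at, too dim to be tested, overlapped, at 56.4 and 46.6 in adult liver, against 33.8 to 71.5 in embryonic liver. Mecom read 31.0 and 24.8 in adult liver, against 29.9 to 399 in embryonic liver (-1.54 log2, SE 0.28, adjusted p = 0.000589). The groups of Mecom overlapped, and against 16.5 dpc alone the difference was -0.31 log2 (adjusted p = 0.517). Genes at the floor add no spread, so their SE and adjusted p may be too small.

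Runx1 and Gata2 were above detection in adult liver and not called. Runx1 read 194 and 284 in adult liver, against 211 to 388 in embryonic liver (-0.33 log2, SE 0.14, adjusted p = 0.0614), and 2 further Runx1 probe sets, 1427650_a_at and 1452531_at, read 153 and 166 and 205 and 219 in adult liver, against 130 to 236 and 120 to 186 in embryonic liver. The dimmest of the 6 Runx1 probe sets by their means, 1422865_at and 1422864_at, read 14.4 to 42.1 in adult liver, against 11.5 to 98.2 in embryonic liver. Gata2 read 167 and 195 in adult liver, against 81.9 to 143 in embryonic liver, on its brighter probe set (0.72 log2, SE 0.18, adjusted p = 0.00427). Its other probe set, 1428816_a_at, read 57.5 and 54.4 in adult liver, against 56.2 to 114 (-0.57 log2, SE 0.19, adjusted p = 0.0198). The 2 Gata2 probe sets thus differed in sign, and neither was called.

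Erg and Hlf were higher in the adult. Erg, the endothelial and stem cell ETS factor, read 552 and 738 in adult liver, against 38.4 to 84.3 in embryonic liver, 9.83-fold higher on its brightest probe set, 1425370_a_at (3.30 log2, SE 0.26, adjusted p = 8.33e-07). Its other probe set, 1440244_at, did not share this and read 39.98 and 40.9 in adult liver, against 17.4 to 59.0 in embryonic liver. Endothelial markers gave no comparable increase: of 24 tested 1 was higher, Stab2 (1.39 log2), a scavenger receptor of liver sinusoids, and 4 lower, Vwf, Egfl7, Icam2 and Lyve1, and their summed intensity was 3111 and 3682 in adult liver, against 3192 to 4308 in embryonic liver. The part of endothelium in the Erg value was not tested.

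Hlf read 250 and 212 in adult liver, against 87.1 to 156 in embryonic liver (1.01 log2, SE 0.16, adjusted p = 0.000179), 2.02-fold higher with no overlap. This lies at the threshold of 1 log2 and was below it without adult replicate 1 (0.89 log2), with any 1 of 5 embryonic arrays left out (0.98 to 0.99 log2), with the mean of its 2 probe sets (0.73 log2) and against 16.5 dpc alone (0.58 log2). Relatives of Hlf were also higher in the adult. Tef, the nearest paralog, read 329 and 334 in adult liver, against 96.2 to 130 in embryonic liver (1.54 log2, SE 0.12, adjusted p = 4.82e-07). Dbp, the third PAR factor, read 579 and 484 in adult liver, against 158 to 420 (1.19 log2, SE 0.27, adjusted p = 0.0024). Nfil3, a repressor that binds the same sites, read 124 and 101 in adult liver, against 11.8 to 83.9 (1.93 log2, SE 0.15, adjusted p = 8.31e-07). These 3 were the only ones called higher among 29 tested family and partner genes. Of 9 tested clock genes 2 were higher and none lower, the nuclear receptors Nr1d2 (3.00 log2, SE 0.16) and Nr1d1 (2.41 log2, SE 0.14, at least 5.31-fold, at the floor on all embryonic arrays). The sources used here do not give the hour at which tissue was taken, and its part in these values was not tested.

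Other blood factor genes, among them Tal1 and Lmo2, were also lower in adult liver. Of the 29 family and partner genes 15 were lower in adult liver, with a median of -1.09 log2. Tal1 read 16.3 and 27.5 in adult liver, against 203 to 1888 in embryonic liver (-5.26 log2, SE 0.09, adjusted p = 1.64e-11), and Lmo2 read 59.6 and 47.8 in adult liver, against 473 to 2522 (-4.91 log2, SE 0.11, adjusted p = 5.56e-11). Of 20 other stem and progenitor genes 7 were lower, among them Ikzf1 (-4.88 log2), Gfi1b (-4.05 log2) and Mllt3 (-3.54 log2), and 3 were higher: Cebpa, Cxcl12 and Hhex. Cebpa and Hhex are also hepatocyte factors. All 11 red cell and all 11 mitosis markers tested were lower in adult liver, and 11 of 14 hepatocyte markers were higher. The part of hepatocytes in the adult values of Erg and Hlf was not tested.

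**Figure D4:**
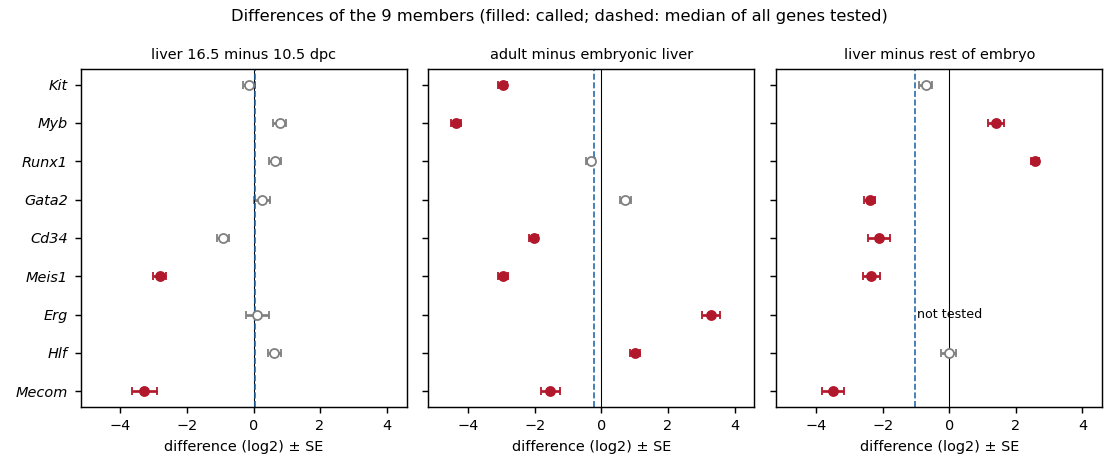
Differences of the 9 genes in log2 with their standard errors, for 16.5 minus 10.5 dpc liver (14 liver arrays in the fit), adult minus embryonic liver (same fit) and liver minus rest of the embryo (12 arrays). Filled points were called, open points not, the solid line marks 0 and the dashed line the median of all genes tested. Runx1 and Myb lie right of 0 and Mecom, Gata2, Meis1 and Cd34 left of the dashed line between the tissues.

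Between the tissues of the same stages, the liver stood out by Runx1 and Myb, and the rest of the embryo by Mecom, Gata2, Meis1 and Cd34. Of 8 genes tested 2 were higher in liver and 4 lower, where 65.1% of all genes were called, 14% higher and 51.2% lower. The 2 sets of arrays hold values of different form, as given above. The median of all genes was -1.04 log2, and it moved to -0.64 log2 with arrays centred on their medians and to -0.14 log2 with quantile normalization. The split of all called genes moved with it, from 2078 higher and 7622 lower to 2519 and 5403 with centring and to 2938 and 3083 with quantiles. The same 6 genes were called in the same directions under all 3.

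Runx1 read 211 and 230, 249 and 233, 361 and 336, and 375 and 346 in liver at the 4 matched stages in order, against 46.1, 41.9, 45.9 and 58.8 in the rest of the embryo. It was 5.98-fold higher in liver (2.58 log2, SE 0.12, adjusted p = 1.64e-08) and 3.18 log2 with quantile normalization. Myb, at 239 to 796 in liver, against 196, 158, 159 and 274 in the rest of the embryo, was higher by 1.39 log2 (SE 0.23, adjusted p = 0.000197) and by 2.31 log2 with quantiles. Its single overlap was replicate 1 of 10.5 dpc with the 14.5 dpc rest of the embryo. Of the 19 probe sets tested between tissues, 7 were called higher in liver and 6 lower, where 64.1% of all probe sets were called. The 7 were 3 of Runx1, 3 of Myb and 1 of Mecom. No array of the rest of the embryo exceeded the median of all values on those of Runx1 and Mecom. Those were therefore tested only through liver, the tissue in which they were called higher. The tissues did not overlap on any of them, and the share of all probe sets without overlap was not counted.

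Mecom had the largest reduction in liver among the 8 genes tested, on its brightest probe set. It read 52.5 to 399 in liver at the matched stages, against 1617, 1613, 1372 and 607 in the rest of the embryo (-3.50 log2, SE 0.33, adjusted p = 2.04e-06, and -2.59 log2 with quantiles). The probe set 1422295_at read 53.5 to 173 in liver, against 37.0, 30.0, 21.5 and 29.6 in the rest of the embryo. Tested only through liver, as given above, it was called the other way at 1.59 log2 (SE 0.29, adjusted p = 0.000345). The mean of the Mecom probe sets gave -0.73 log2 and no call. Meis1 read 109 to 646 in liver, against 1431, 1477, 1478 and 952 in the rest of the embryo (-2.34 log2, SE 0.27, adjusted p = 8.88e-06, and -1.23 log2 with quantiles). Its other probe sets were not called, 1443260_at at -0.98 log2 (SE 0.29) and 1459423_at at -0.92 log2 (SE 0.17), both near the median of all genes. On 1443260_at the tissues overlapped, at 44.9 to 144 in liver, against 229, 163, 131 and 153. Gata2 read 81.9 to 143 in liver, against 450, 737, 549 and 556 in the rest of the embryo (-2.40 log2, SE 0.16, adjusted p = 1.26e-07, and -1.56 log2 with quantiles), and its second probe set was called at -2.60 log2. Cd34 read 75.4 to 155 in liver, against 454, 284, 425 and 1070 in the rest of the embryo (-2.11 log2, SE 0.33, adjusted p = 0.000106, and -1.31 log2 with quantiles). On the brightest probe sets, no liver array of these 4 genes reached the lowest array of the rest of the embryo. The share of all genes for which this held was not counted. Kit, at 156 to 308 in liver, against 347, 260, 331 and 508 in the rest of the embryo, was not called (-0.71 log2 as deposited and 0.21 log2 with quantiles), and neither was Hlf (-0.02 and 0.48 log2).

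Erg again depended on the probe set. The brightest, 1425370_a_at, read 43.4 to 82.9 in liver at the matched stages, against 31.1, 5.48, 18.6 and 5.27 in the rest of the embryo, and was too dim to be tested. The other, 1440244_at, read 29.4 to 59.0 in liver, against 129, 200, 262 and 337 in the rest of the embryo. It was called lower in liver (-2.53 log2, SE 0.27, adjusted p = 4.78e-06). No liver array exceeded the median of all values on it, so it was tested only through the rest of the embryo. The tissues did not overlap on it. Among 25 endothelial markers tested, 14 were called lower in liver and none higher, where 51.2% of all genes were called lower. The median of these markers was -1.15 log2, near the -1.04 log2 of all genes. Emcn stood at -2.82 log2 and Cdh5, the endothelial cadherin, at -2.35 log2. The summed intensity of the endothelial markers was 3277 to 4308 in liver, against 6513 to 12547 in the rest of the embryo. Endothelium is a known site of Cd34, Gata2, Erg and Meis1. Its part in their tissue differences was not tested.

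Partner genes also differed between the tissues, in both directions. Of 32 tested family and partner genes 6 were higher in liver, Gata1, Csf1r, Zfpm1, Lyl1, Lmo2 and Dbp, and 18 lower, with a median of -1.38 log2 against the -1.04 log2 of all genes. The lowest in liver were Podxl2 (-4.20 log2), a sialomucin of the Cd34 family, Meis2 (-3.64 log2) and Nfil3 (-3.18 log2). Of 22 other stem and progenitor genes 6 were higher, Ikzf1 (2.87 log2), Slamf1, Gfi1b, Spn, Cebpa and Itga2b, and 11 lower, among them Hoxb4 (-2.94 log2) and Cxcr4 (-2.82 log2), the receptor for Cxcl12. The median of that list was -0.91 log2.

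The tissue gap widened with stage for Cd34, and for Meis1 on its brightest probe set only. Of 8 genes tested 2 were called, both in the direction of a relative loss in liver, where 16.1% of all genes were called and 10.1% in that direction. The split of all called slopes was 893 positive and 1506 negative, and 1105 and 1227 with median centring. Cd34 differed between liver and the rest of the embryo by -1.62, -1.04, -2.06 and -3.70 log2 at the 4 matched stages in order, a slope of -0.60 log2 per day (SE 0.12, adjusted p = 0.00825). This rested on the 14.5 dpc array of the rest of the embryo, where Cd34 read 1070. Without that array the slope was -0.22 log2 per day (adjusted p = 0.609). Meis1 differed by -1.19, -2.15, -2.97 and -3.06 log2, a slope of -0.45 log2 per day (SE 0.11, adjusted p = 0.0238), which was -0.27 (adjusted p = 0.253) without the 10.5 dpc array of the rest of the embryo, -0.89 (adjusted p = 0.0328) without its 14.5 dpc array and -0.45 (adjusted p = 0.0587) without replicate 2 of 14.5 dpc liver. The other Meis1 probe sets sloped the other way without a call, 1443260_at by 0.44 log2 per day (SE 0.14, adjusted p = 0.0678) and 1459423_at by 0.076 (SE 0.11, adjusted p = 0.705), and the mean of the 3 turned the slope to 0.021 log2 per day. The slopes of the 6 genes not called were -0.35 log2 per day for Hlf (adjusted p = 0.0533), -0.17 for Kit, -0.12 for Mecom, -0.014 for Myb, -0.0082 for Gata2 and 0.088 for Runx1. Tested by themselves, 4 of 19 probe sets had called slopes, all toward a relative loss in liver, where 3724 of 25980 probe sets were called. Besides those of Cd34 and Meis1 these were 1440878_at of Runx1 and 1440244_at of Erg. Their slopes were -0.68 (SE 0.20, adjusted p = 0.0441) and -0.45 log2 per day (SE 0.11, adjusted p = 0.0249). No other Runx1 probe set was called. Of 25 endothelial markers 17 had slopes called in that direction and 1, Stab2, in the other, with Emcn at -0.71 and Tek at -0.62 log2 per day. Their part in the slope of Cd34 was not tested.

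The genes most like each of the 9 were named by Pearson correlation of log2 values over the 14 liver arrays, 2 of them adult, so that all share the contrast of adult and embryo, and r is given as a description. Closest to Kit were Eif6 (r = 0.991), Parp1 (0.989) and Rcor1 (0.989), and closest to Myb Xrcc6 (0.996), Mob1a (0.995) and Zwilch (0.993). Closest to Cd34 were Hnrnpa0 (0.992), Phtf1 (0.991) and Marcks (0.988), and closest to Meis1 Marcksl1 (0.994), Slc39a10 (0.993) and Ptgfrn (0.992). Mecom was nearest to Tax1bp3 (0.966), Fbn2 (0.965) and Mageh1 (0.963). Erg was nearest to Serp2 (0.979), Serpina4-ps1 (0.978) and Glyat (0.976), and Hlf to Esrp2 (0.975), Prkcz (0.953) and Trim80 (0.948). Runx1 and Gata2, which changed least between adult and embryo, had weaker neighbours, 5730416F02Rik (0.910), Tssk4 (0.905) and Aplp2 (0.898) for Runx1 and Ldlrad4 (0.921), Dlg2 (0.918) and Trib3 (0.909) for Gata2. Among the 9 themselves Kit and Myb ran closest (r = 0.98), followed by Cd34 and Meis1 (r = 0.946), and Kit and Erg were most opposed (r = -0.974).

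Markers of other cells that carry these genes were read on the same arrays. Mast cells carry Kit and Gata2, and 9 mast cell markers summed to 752 and 833 in adult liver, against 746 to 1766 in embryonic liver, with Mrgprb1 at the floor throughout. Of 5 tested mast cell genes 1 was lower in adult liver, Mcpt4 (-1.65 log2). Megakaryocytes carry Runx1, Gata2 and Mecom. Of 9 of their markers 6 were higher at 11.5 than at 10.5 dpc, where 419 of all 14125 genes tested were. Ppbp rose by 3.21 log2 in this step. The sum of the megakaryocyte markers was 878 and 936 in adult liver, against 2859 to 8334 in embryonic liver, highest at 11.5 dpc like Myb and Kit. Macrophage markers summed to 4746 and 4875 in adult liver, against 1917 to 5807 in embryonic liver. Their part in the values of the 9 genes was not tested.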

How the data were processed

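The deposited series matrix holds 1 intensity per probe set and array on a linear scale. The summarisation and scaling that the authors used are not given in the sources used here. Total RNA was extracted with Trizol, per the labels' protocols. Of 45101 probe sets, 34945 had 1 symbol in the platform annotation, 932 had several and were not used, and 64 control probe sets were left out.

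Intensities at or under the 20th percentile of all values were raised to it, log2 was taken, and the brightest probe set by mean log2 over the 18 arrays stood for its gene. Genes above the 50th percentile on at least 2 arrays were fitted with limma 3.58.1 in R 4.3.3 (lmFit, eBayes with an intensity trend, Benjamini-Hochberg adjustment over all genes tested). The 7 liver groups (14 arrays) shared 1 fit, adult liver being set against the mean of the 6 embryonic stages. Liver and the rest of the embryo were fitted over 12 arrays at 4 matched stages with stage as a term. Calls required 1 log2 or more (for stage slopes of the tissue difference, 0.25 log2 per day) with an adjusted p under 0.05. The test over any stage needed the adjusted p alone. Values in the text are unfloored intensities and means ± SD of them, and differences are on the floored log2 scale. Where all arrays of a group lay at the floor, the fold is a lower bound. The fits were tested on simulated data.

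The 9 genes are given in each comparison in which they were tested, along with up to 3 called genes of each list by size and the 3 genes with the highest correlation. Other list genes named were chosen after their values were seen. The 9 genes and the lists were chosen with earlier results of these data known. Groups came from the source names, also where titles or age tags of embryonic samples differ. The labels of the adult samples carry a treatment text on partial hepatectomy, while title, source and description name baseline normal liver, which was followed. Alternatives were other floors, no filter, centring, quantile normalization, other probe set rules, no trend, a replicate block, all arrays in 1 fit, and arrays or stages left out.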

Additional observations from a re-analysis of the deposited data

Results flagged for a closer look

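The tissue difference changed with stage for Cd34 and Meis1. The liver minus rest-of-embryo difference moved by -0.60 log2 per day for Cd34 (SE 0.12, limma adjusted p = 0.00825) and by -0.45 log2 per day for Meis1 (SE 0.11, adjusted p = 0.0238), from 8 liver arrays and 4 arrays of the rest of the embryo. Without the 14.5 dpc array of the rest of the embryo the slope of Cd34 was -0.22 log2 per day and was not called. The Meis1 call was lost without the 10.5 dpc array of the rest of the embryo (-0.27 log2 per day, adjusted p = 0.253) and without replicate 2 of 14.5 dpc liver (adjusted p = 0.0587), its probe set 1443260_at sloped by 0.44 log2 per day, and the mean of its probe sets gave 0.021.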

How the results depend on the processing

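Of the alternative values for the 9 genes, 1577 kept direction and side of the threshold, 59 lost a call and 12 gained one. A further 64 changed sign with no call before or after, and 1, the slope of Meis1, changed sign and lost its call. Testing every probe set gave 4124 calls for 16.5 minus 10.5 dpc, 1361 for 11.5 minus 10.5 dpc, 8444 for adult liver, 6667 over any stage, 16660 between tissues and 3724 for the slope, against 2457, 799, 5020, 4228, 9700 and 2399 with 1 probe set a gene. When the arrays of 10.5 and 12.5 dpc were dropped, the counts were 1221 for the span to 16.5 dpc, 746 for the first remaining step, 6 for the last span, 2268 over any stage and 1172 for the slope, and of the 9 genes 1, 1 and 0 were called in the first 3 of these. With the mean of a gene's probe sets 0 of the 9 were called for 16.5 minus 10.5 dpc, 0 for 16.5 minus 12.5 dpc and 1 for the slope, where Meis1 turned to 0.021 log2 per day. With quantile normalization 6021 genes were called between tissues, and Top2a turned to 0.032 log2. Without 10.5 and 12.5 dpc Ppbp turned to -0.45 and Gp9 to -0.51 log2, and without the 14.5 dpc rest of the embryo the slope of Lyve1 turned to 0.090 log2 per day (it was -1.10 without the 10.5 dpc one). Leaving out 1 array at a time gave 2356 to 2798 genes and 2 to 3 of the 9 for 16.5 minus 10.5 dpc, 557 to 1723 and 1 to 3 for 11.5 minus 10.5 dpc, 279 to 442 and 0 to 1 for 12.5 minus 11.5 dpc, 97 to 285 and 0 to 1 for 16.5 minus 12.5 dpc, 4426 to 5103 and 6 to 7 for adult liver, 3492 to 4782 and 4 to 6 over any stage, 9439 to 9807 and 6 to 6 between tissues, and 792 to 2485 and 1 to 3 for the slope. The gene counts that moved by over 1.5 times were 1723 for 11.5 minus 10.5 dpc (10.5 dpc replicate 2 left out), 115, 106 and 97 for 16.5 minus 12.5 dpc (12.5 dpc replicate 2, 16.5 dpc replicate 1 or its replicate 2 left out), and for the slope 1400 and 792 without the 10.5 and 14.5 dpc rest of the embryo. Without replicate 1 of 11.5 dpc Meis1 was called for 12.5 minus 11.5 dpc (-1.16 log2), as it was for 11.5 minus 10.5 dpc when the other array of that stage was left out (-1.24 log2), and Myb for 16.5 minus 10.5 dpc without replicate 2 of 10.5 dpc (1.13 log2). A floor at the 40th percentile removed the adult liver calls of Cd34 (-0.89 log2) and Mecom (-0.68 log2). The cause of these changes was not tested. Deviations of same-numbered liver arrays correlated at r of -0.354 to 0.254 over 21 pairs of liver groups, above 0.1 in 5 of them. No array of the rest of the embryo entered this, so pairing across tissues was not tested. The main fits did not pair arrays by number. The fit with the replicate number as a block called 2448, 798, 405, 225, 5019, 3929, 9749 and 2215 genes in the order of these 8 comparisons, and of the 9 genes lost Kit over any stage (adjusted p = 0.0712). Signal over background limits Mecom, Erg and Cd34 most, whose brightest probe sets exceeded the detection level on 4, 5 and 9 of the 14 liver arrays.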
